A study of Solanum lycopersicum with 16 samples.

Results

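Unstressed roots were set against unstressed shoots of the same tomato experiment. The aim was to describe how transcripts of the IDD family were divided between the tissues in plants given no stress treatment. The members were the 4 samples titled as control plants, 2 of roots and 2 of shoots, out of 16 samples in the series. The other 12 samples came from plants under salt, low pH or flood, 4 of each. Plants were 3-week-old tomato (Solanum lycopersicum cv. M82) grown in potting medium in a greenhouse under long days, and M82 is a cultivar that carries a mutant allele of SlIDD5. Control plants had their medium saturated with water at pH 6.8, and roots and shoots were collected 2 h and 24 h later. Salt plants received 200 mM NaCl at the same pH, low pH plants received water at pH 4.2, and flooded plants stood with their roots under water of pH 6.8.

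INDETERMINATE DOMAIN (IDD) proteins are transcription factors found in plants, which bind DNA through a run of zinc fingers near one end of the protein. In Arabidopsis several of them partner with GRAS family proteins such as SHORT-ROOT, SCARECROW and the DELLA repressors of gibberellin signalling. Members of the BIRD group of Arabidopsis (JACKDAW, MAGPIE, NUTCRACKER and others) pattern the cell layers of the root, whereas other members act in leaf architecture, gravitropism and flowering time.

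The panel held 22 targets, namely the 18 SlIDD genes, SlIDD-like1 and 3 further transcription factor transcripts (SlSTOP1, CRF5 and STF4). Each was measured by SYBR Green quantitative RT-PCR with ubiquitin (UBI) as the reference gene. The readout is Ct, the PCR cycle at which the product of a well crossed a detection level, so that 1 cycle less stands for about a doubling of template. UBI was on both plates, SlIDD1 to SlIDD11 were on the first, and SlIDD-like1, the genes from SlIDD12 to SlIDD18 and the targets outside the family were on the second. Of the 384 control wells 342 had a value and 337 were used, at Ct 14.23 to 30.99, with at most 4 wells behind each target, tissue and time. The study states 4 biological samples and 2 technical replicates, but nothing in the labels ties a well to a plant. Each p below therefore measures the spread between wells, and it comes out too small if a plant supplied several of them.

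Tissue followed the titles and source names of the samples. Other label fields give the control root samples a different treatment or tissue, and an exchange of root and shoot on a plate would turn the sign of every difference on that plate. No gene that defines root or shoot was in the panel. Other work places SlIDD9, SlIDD3 and SlIDD10 in roots, SlIDD9 and SlIDD10 also in fruit, and SlIDD5 in leaves, which is not by itself a comparison of root with shoot. In the control wells SlIDD9 came up 4.56 and 2.22 cycles later in roots than in shoots at 2 h and 24 h. The delay in roots was 2.81 and 3.18 cycles for SlIDD3, and 1.46 and 1.69 cycles for SlIDD10. SlIDD5 lay within 0.05 cycles between tissues at 2 h and 0.36 cycles at 24 h. Before any reference was applied, these 3 targets were thus later in the wells labelled root at both times. With UBI subtracted, SlIDD9 and SlIDD10 were called higher in roots at 24 h (1.04 and 1.57, limma adjusted p = 0.00933 and 0.0006). Whether tissues were exchanged cannot be told from these files. Roots and shoots below are the wells that carry those labels.

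**Figure D1:**
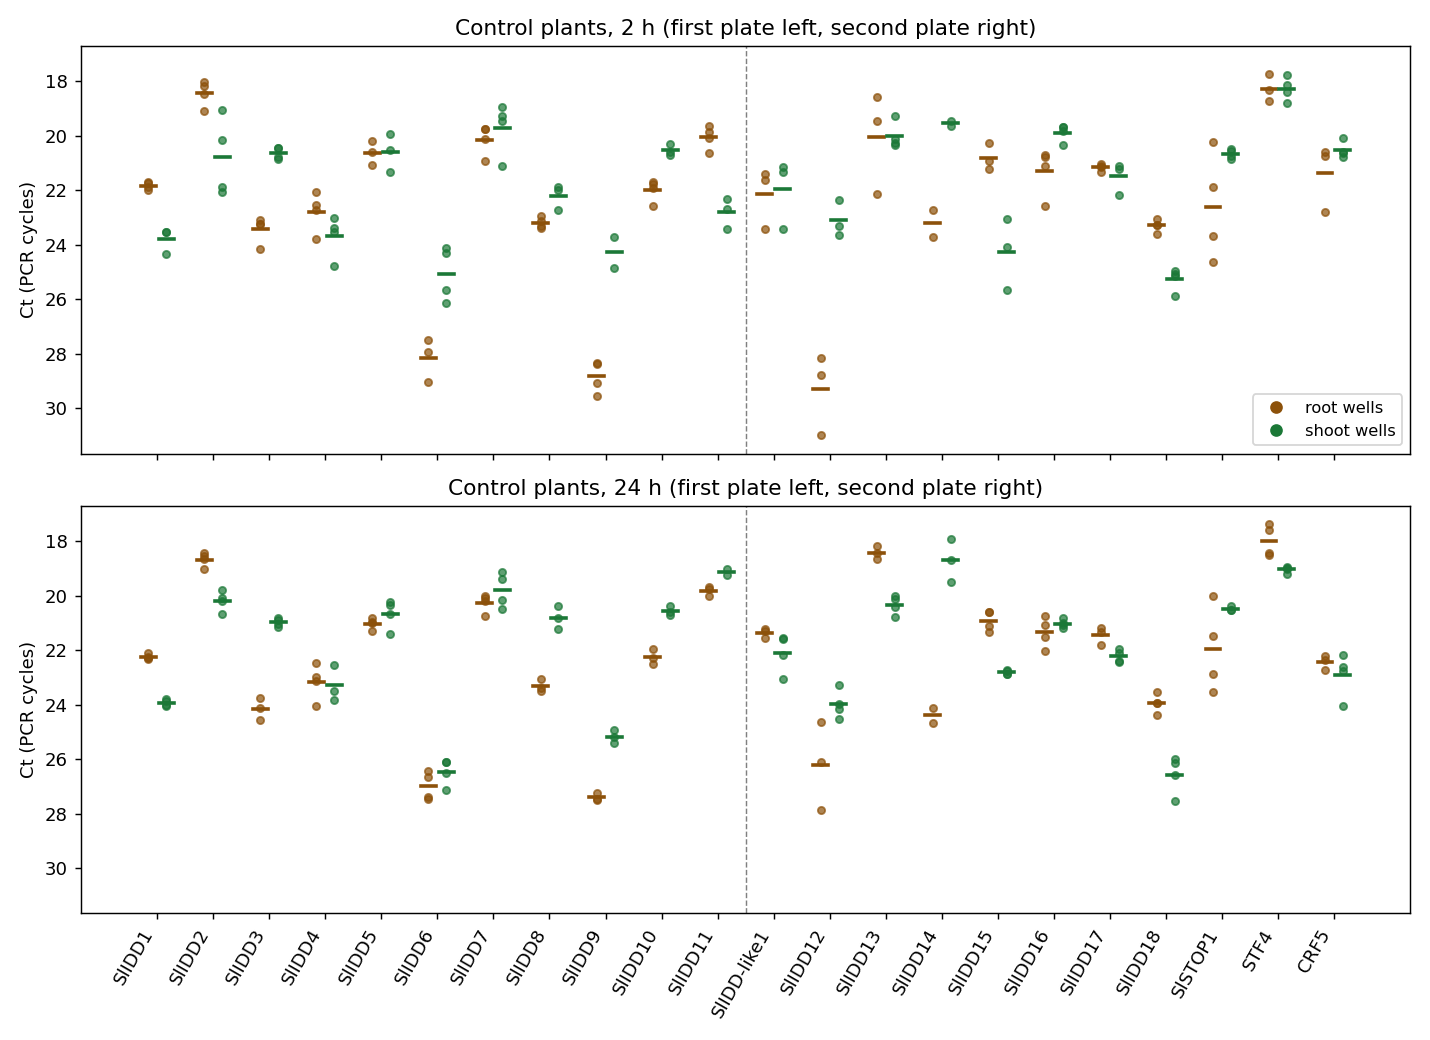
Ct of every control well (y axis, PCR cycles, inverted so that more template is higher) for the 22 targets (x axis), roots in brown and shoots in green, with bars at the group means and 1 panel for each time. SlIDD12, SlIDD14 and SlIDD9 lie far lower in roots, and SlIDD1, SlIDD15 and SlIDD18 lie higher in roots at both times.

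The reference gene itself was compared first. At 2 h UBI had a Ct of 16.50 ± 0.37 (SD, n = 4 wells) in roots and 15.65 ± 0.53 (n = 3) in shoots on the first plate, 0.85 cycles apart (two-sided exact permutation p = 0.0857). On the second plate at 2 h the tissues lay 0.18 cycles apart (exact p = 0.571). At 24 h the root wells of the first plate read 17.52, 17.84, 17.61 and 17.89, and the only 2 shoot wells in use read 14.23 and 14.67. These groups did not overlap and lay 3.27 cycles apart, at the smallest p that 4 against 2 wells allow (exact p = 0.0667). On the second plate at 24 h UBI differed by -0.03 cycles (exact p = 0.857). Under stress the difference in UBI between roots and shoots ran from -1.93 to 0.29 cycles, so that the 3.27 cycles of the control wells lay outside the range of all stressed groups. Each first-plate difference at 24 h therefore contains those 3.27 cycles, and such values are given below with and without the reference.

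**Figure D2:**
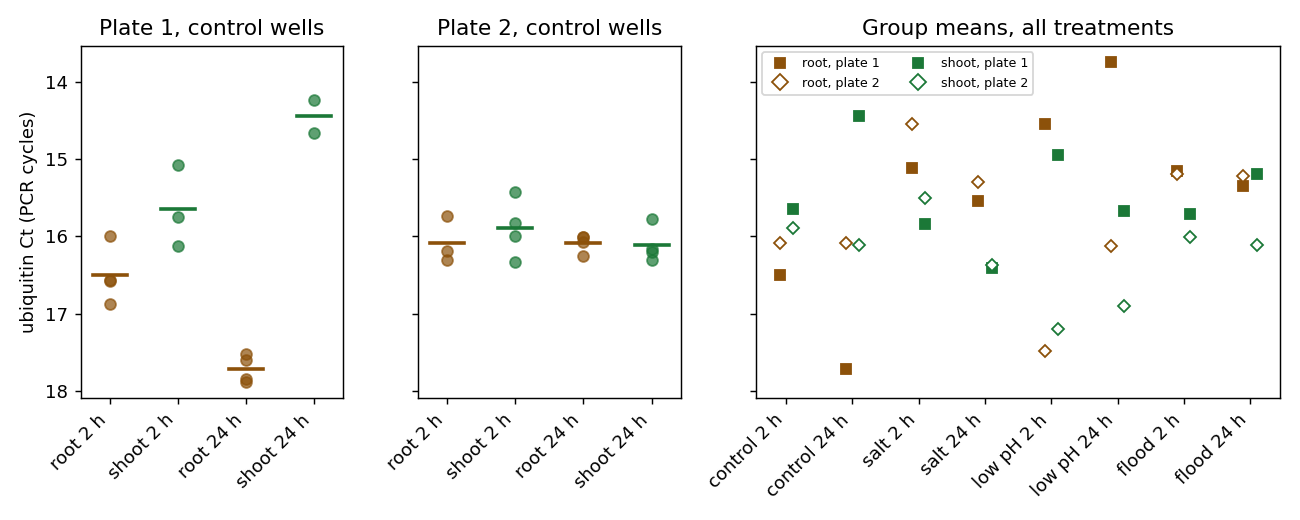
UBI Ct (y axis, PCR cycles, inverted) in the control wells of each plate (left and middle, points are wells and bars are means) and as group means of all treatments (right, filled symbols for plate 1 and open symbols for plate 2). The control roots and shoots of plate 1 at 24 h lie 3.27 cycles apart, while those of plate 2 differ by -0.03.

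Differences are given as root minus shoot on the log2 scale after subtraction of the UBI Ct of the same plate, tissue and time, with positive values where roots held more transcript. They were fitted with limma and adjusted over the 22 targets by the Benjamini-Hochberg method, and a target was called at an adjusted p under 0.05. At 2 h, 6 targets were higher in roots (27.3% of 22) and 5 were higher in shoots (22.7% of 22). At 24 h, 14 were higher in roots (63.6%) and 2 in shoots (9.09%). The median over all targets was 0.07 at 2 h and 1.31 at 24 h, against -0.31 and -0.34 without a reference gene. Without the reference the calls were 5 higher in roots and 9 in shoots at 2 h, and 7 and 6 at 24 h. The Ct wells of the tissues did not overlap for 12 targets at 2 h (54.5%) and 14 at 24 h (63.6%), and after subtraction of UBI for 13 (59.1%) and 17 (77.3%). The surplus of root-higher calls at 24 h was thus present under UBI and not in the Ct values as measured. In such whole-organ samples fewer cells that express a gene and less RNA per cell cannot be told apart.

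**Figure D3:**
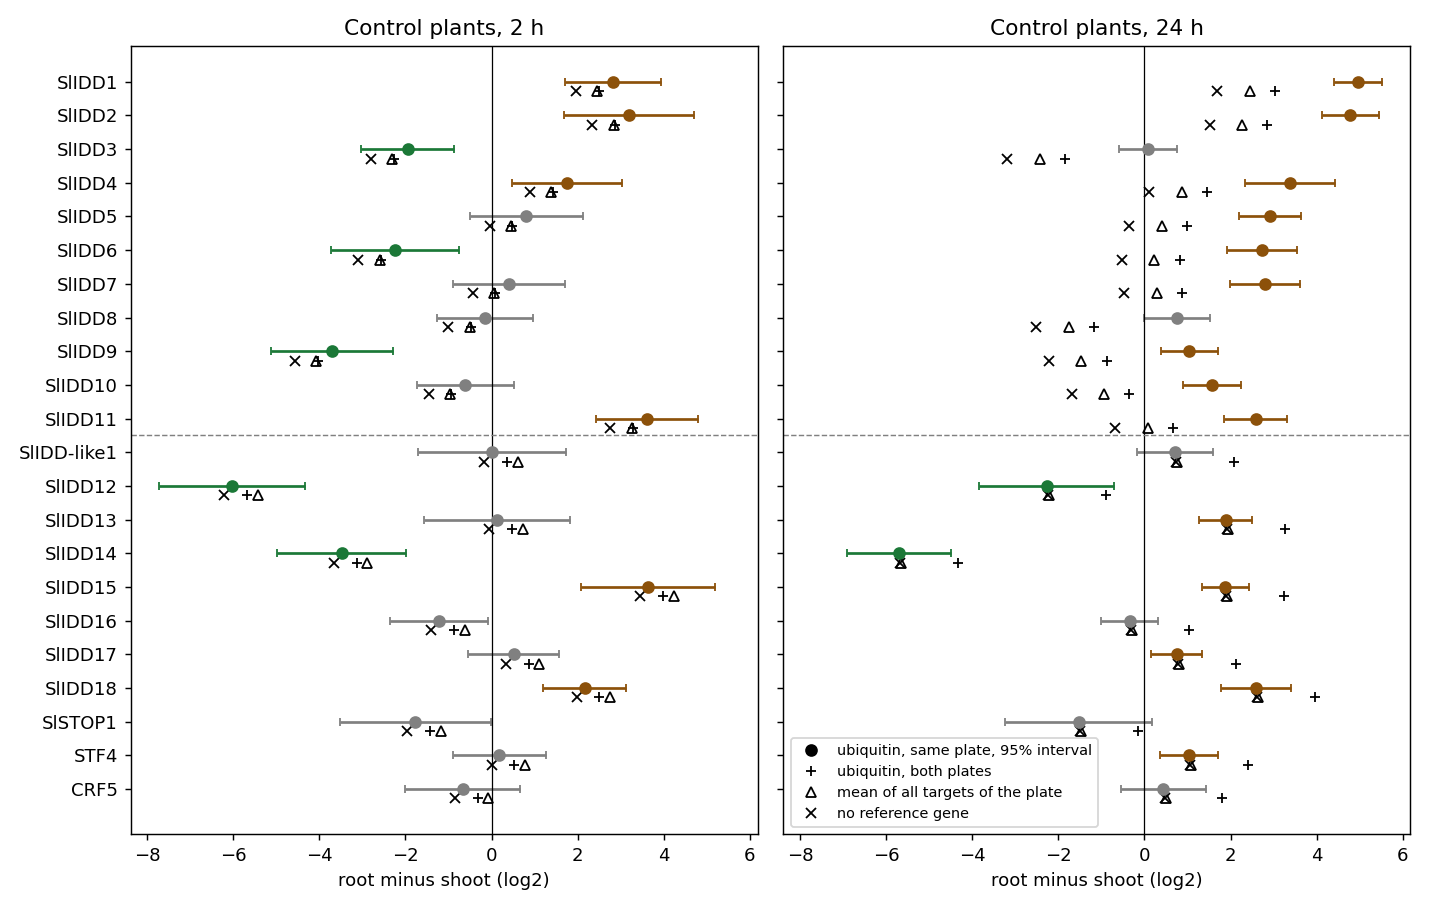
Root minus shoot (x axis, log2) for each target (y axis) at 2 h and 24 h in control plants, with filled circles and 95% intervals for the same-plate UBI reference (brown called higher in roots, green called higher in shoots, grey not called) and black symbols for 3 other references. Symbols of a target lie close together at 2 h and spread by up to 3.27 on the first plate (upper 11 targets) at 24 h.

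Every target was fitted with 5 references (UBI of the same plate, UBI of the same plate and well row, UBI over both plates, the mean of all targets of the plate, and none). The mean of all targets includes the target itself and levels each plate between the tissues, so that no general excess can show under it. SlIDD1, SlIDD2, SlIDD15 and SlIDD18 were called higher in roots at both times under all 5 references. SlIDD14 was called higher in shoots at both times under all 5. SlIDD12 was called higher in shoots under all 5 at 2 h and under 4 at 24 h. SlIDD10, SlIDD8 and SlIDD9 were called in opposite directions at 24 h depending on the reference.

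SlIDD1 belongs with SlIDD17 and SlIDD18 to the group nearest to Arabidopsis IDD1 (ENHYDROUS) and IDD2 (GAF1), which act in gibberellin signalling and seed maturation. In control roots SlIDD1 had Ct 21.88, 21.73, 21.99 and 21.71 at 2 h and 22.10, 22.33, 22.24 and 22.28 at 24 h. In shoots it had 23.52, 24.33 and 23.52 at 2 h and 23.79, 23.88, 24.00 and 24.04 at 24 h. Every root well came up before every shoot well at both times. The difference was 2.81 ± 0.52 (SE) at 2 h (7.03-fold, limma adjusted p = 0.000418) and 4.95 ± 0.25 at 24 h (31.0-fold, adjusted p = 2.43e-08). Without a reference it was 1.96 and 1.69, so that the Ct difference itself was of similar size at both times.

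SlIDD18 had Ct 23.28, 23.59, 23.04 and 23.26 in roots against 25.87, 24.96, 25.09 and 25.15 in shoots at 2 h. Its 24 h wells had 23.54, 23.92, 23.94 and 24.39 in roots against 26.01, 26.15, 26.58 and 27.54 in shoots. The tissues did not overlap at either time. SlIDD18 was 4.46-fold higher in roots at 2 h (log2 2.16 ± 0.45, limma adjusted p = 0.000847) and 6.03-fold at 24 h (2.59 ± 0.37, adjusted p = 3.99e-05). UBI on this plate was nearly level between tissues, and the Ct differences of 1.97 and 2.62 were close to these values. SlIDD17, the third of the group, differed by 0.51 at 2 h (95% interval -0.54 to 1.57) and was higher in roots by 0.75 ± 0.27 at 24 h (adjusted p = 0.0233). That call of SlIDD17 was lost without the first, the third or the fourth well row (0.63 to 0.72). Of the 3 genes, 2 were called higher in roots at 2 h and 3 at 24 h, beside 27.3% and 63.6% of all targets. The medians of the group were 2.16 and 2.59, against 0.07 and 1.31 over all targets.

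SlIDD2 is grouped with SlIDD10 and SlIDD11 near Arabidopsis IDD7 and IDD11, whose roles are little known. SlIDD2 had Ct 19.09, 18.45, 18.19 and 18.04 in roots and 21.88, 22.05, 20.14 and 19.07 in shoots at 2 h. At 24 h roots had 18.45, 18.56, 18.65 and 19.03, and shoots had 19.78, 20.08, 20.19 and 20.68. The lowest shoot well at 2 h, at 19.07, overlapped the highest root well, and at 24 h the tissues were apart. SlIDD2 was higher in roots by 3.20 ± 0.71 at 2 h (9.16-fold, limma adjusted p = 0.00108) and by 4.78 ± 0.31 at 24 h (27.4-fold, adjusted p = 2.02e-08). The Ct differences were 2.34 and 1.51.

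SlIDD11 had root Ct values of 20.10, 19.86, 20.65 and 19.64 at 2 h and 20.02, 19.75 and 19.70 at 24 h. Its shoot wells read 22.70, 23.41 and 22.34 at 2 h but 19.02 and 19.26 at 24 h. The roots changed by -0.24 cycles between the times and the shoots by -3.68, which placed the shoots below the roots in Ct at 24 h. With UBI the difference was 3.61 ± 0.56 at 2 h (12.2-fold, limma adjusted p = 9.68e-05) and 2.58 ± 0.33 at 24 h (5.99-fold, adjusted p = 3.46e-05). Without a reference the 24 h value was -0.68 and was not called (adjusted p = 0.0660), so the direction at 24 h came with the reference. The third gene of the group, SlIDD10, a transcript of the root exodermis, differed by -0.61 at 2 h (95% interval -1.74 to 0.52). At 24 h it was higher in roots by 1.57 with UBI of the same plate and lower by 1.69 without a reference, both past the threshold.

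SlIDD15 and SlIDD3 form a group near Arabidopsis IDD12, a gene of unknown function, and were divided between the tissues in opposite directions at 2 h. SlIDD15 had Ct 20.93, 21.23 and 20.26 in roots against 25.65, 24.08 and 23.04 in shoots at 2 h. At 24 h it had 20.61, 21.35, 21.11 and 20.59 in roots against 22.89, 22.86, 22.78 and 22.74 in shoots. No root well reached the Ct of a shoot well at either time. It was 12.4-fold higher in roots at 2 h (log2 3.63 ± 0.71, limma adjusted p = 0.000862) and 3.68-fold at 24 h (1.88 ± 0.26, adjusted p = 1.81e-05). SlIDD3 was higher in shoots 3.87-fold at 2 h (root minus shoot -1.95 ± 0.51, adjusted p = 0.00367). At 24 h its difference was 0.09 with UBI and -3.18 without a reference, and its Ct was 23.75 to 24.58 in roots against 20.82 to 21.15 in shoots. The SlIDD3 wells themselves did not overlap at either time. Its 2 h call was lost without the third well row (-1.93, adjusted p = 0.0550).

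SlIDD4 is related to Arabidopsis IDD5 (RAVEN), which acts in root patterning and starch synthesis. Its root wells read 23.80, 22.71, 22.06 and 22.55 at 2 h and 23.00, 22.47, 23.14 and 24.07 at 24 h. The shoot wells read 23.39, 24.77, 23.52 and 23.01 at 2 h and 23.48, 23.84 and 22.54 at 24 h, and overlapped the root wells at both times. With UBI the root excess was 1.75 ± 0.60 at 2 h (3.35-fold, limma adjusted p = 0.0202) and 3.38 ± 0.47 at 24 h (10.4-fold, adjusted p = 4.35e-05). In Ct it was 0.89 and 0.12, and the 2 h call was lost without the second well row (1.47) and without the third (1.58).

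SlIDD12 showed the widest gap of the panel at 2 h. It is grouped with SlIDD5 and SlIDD-like1 near Arabidopsis IDD14, IDD15 and IDD16 and rice LPA1, regulators of organ angle and gravitropism. SlIDD12 had Ct 30.99, 28.15 and 28.77 in roots against 23.30, 23.65 and 22.34 in shoots at 2 h. At 24 h it had 24.63, 26.12 and 27.88 in roots against 23.96, 23.27, 24.14 and 24.52 in shoots. All root wells were above all shoot wells in Ct, but at 24 h the lowest root well (24.63) lay next to the highest shoot well (24.52). SlIDD12 was higher in shoots 65.0-fold at 2 h (root minus shoot -6.02 ± 0.78, limma adjusted p = 9.68e-05). The excess in shoots was 4.80-fold at 24 h (-2.26 ± 0.69, adjusted p = 0.0143). The root wells were also the most scattered of this target, with an SD of 1.49 and 1.62 cycles. With UBI averaged over both plates the 24 h value was -0.89 and was not called.

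The other members of that group were not divided in the same way. SlIDD5 (OBSCURAVENOSA), needed for bundle sheath extensions in leaf veins, differed by 0.81 at 2 h (95% interval -0.50 to 2.12). At 24 h SlIDD5 was higher in roots by 2.91 ± 0.33 with UBI (adjusted p = 5.51e-06), while its Ct overlapped between tissues, at 20.83 to 21.29 in roots and 20.22 to 21.41 in shoots. SlIDD-like1, a gene of stigma position, differed by 0.01 at 2 h (95% interval -1.72 to 1.73) and 0.71 at 24 h (-0.18 to 1.60). Of the 3 genes 1 was called higher in shoots at 2 h, beside 22.7% of all targets. At 24 h 1 was called in each direction, beside 63.6% toward roots and 9.09% toward shoots over all. The medians of the group were 0.01 and 0.71, against 0.07 and 1.31 over all targets. SlIDD9 resembles these genes in the study's alignment but was not counted among them. Its difference was -3.71 at 2 h, toward shoots, and at 24 h 1.04 with UBI and -2.22 without a reference.

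SlIDD6, SlIDD7, SlIDD13 and SlIDD14 are related to Arabidopsis IDD9 (BALDIBIS), IDD10 (JACKDAW) and IDD13. SlIDD14 acts with SlIDD13 on stem thickness and leaf shape in tomato. It had Ct 22.71 and 23.71 in roots against 19.65 and 19.44 in shoots at 2 h, with only 2 wells in each tissue. The 24 h wells had 24.11 and 24.66 in roots against 19.51, 18.68 and 17.93 in shoots. The gap was wider at 24 h, and no well of one tissue came within 3 cycles of the other. SlIDD14 was higher in shoots 11.1-fold at 2 h (root minus shoot -3.48 ± 0.68, limma adjusted p = 0.00108) and 52.3-fold at 24 h (-5.71 ± 0.51, adjusted p = 2.80e-05). The Ct differences of -3.66 and -5.68 were nearly the same, since UBI on this plate was level.

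SlIDD13 differed by 0.12 at 2 h (95% interval -1.57 to 1.82), where its root wells ran from 18.58 to 22.13, and it was called only without the first well row (1.55). At 24 h it was higher in roots by 1.88 ± 0.29 (3.69-fold, limma adjusted p = 4.86e-05), with Ct 18.18 to 18.66 in roots and 20.02 to 20.78 in shoots. SlIDD13 and SlIDD14 therefore lay in opposite tissues at 24 h. SlIDD6 was a late transcript, at Ct 29.04, 27.93 and 27.49 in roots and 26.15, 24.10, 25.67 and 24.31 in shoots at 2 h. At 24 h SlIDD6 had 27.39, 26.44, 26.65 and 27.46 in roots and 26.10, 26.10, 27.13 and 26.49 in shoots, so that the tissues overlapped. Its difference was -2.24 ± 0.69 at 2 h (higher in shoots, adjusted p = 0.0122) and 2.74 ± 0.38 at 24 h (higher in roots with UBI, adjusted p = 2.11e-05). Without a reference SlIDD6 stayed later in roots, by 3.09 and 0.53 cycles. The call at 2 h was lost without the second well row (-1.37) and without the third (-2.53). SlIDD7 differed by 0.41 at 2 h (-0.89 to 1.71). By 24 h SlIDD7 was higher in roots by 2.80 ± 0.38 (adjusted p = 2.11e-05) while its Ct was 0.46 cycles later in roots.

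The relatives of the root-patterning BIRD genes (SlIDD4, SlIDD6, SlIDD7, SlIDD8, SlIDD13 and SlIDD14) were called in both directions. At 2 h 1 of the 6 was higher in roots and 2 were higher in shoots, beside 27.3% and 22.7% of all targets, with a median of -0.02 against 0.07 over all targets. At 24 h 4 were higher in roots and 1 in shoots, beside 63.6% and 9.09%, with a median of 2.31 against 1.31. These counts were within 1 target of the shares over the whole panel. In Ct their medians were -0.73 and -0.50, against -0.31 and -0.34 over all targets. SlIDD8, near Arabidopsis IDD3 (MAGPIE) and IDD8 (NUTCRACKER), differed by -0.16 at 2 h (95% interval -1.28 to 0.97) and 0.76 at 24 h (-0.01 to 1.52). Its Ct was 2.51 cycles later in roots at 24 h, and with UBI it was called higher in roots there without the fourth well row (0.92).

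The study describes Arabidopsis STOP1, which activates malate transporters against protons and aluminium, as a close homolog of SlIDD9, and SlSTOP1 bears its name. In the study's alignment, however, the zinc fingers of SlIDD9 resemble those of SlIDD12 and SlIDD-like1 and not those of STOP1. The study also reports synteny of SlIDD9 with SlIDD-like1. SlIDD9 had Ct 28.33, 29.57, 29.07 and 28.38 in roots and 23.70 and 24.84 in shoots at 2 h. The later wells, at 24 h, had 27.23, 27.50 and 27.47 in roots and 24.91, 25.20 and 25.42 in shoots. Shoot wells came up first at both times without exception. The difference was -3.71 ± 0.66 at 2 h (13.1-fold higher in shoots, limma adjusted p = 0.000418) but 1.04 ± 0.30 at 24 h (2.06-fold higher in roots, adjusted p = 0.00933), with 3.27 cycles of UBI subtracted. Without the reference the 24 h value was -2.22, and with the mean of all plate targets -1.47, both past the threshold toward shoots. The UBI-based call at 24 h was lost without the third well row (0.99).

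SlSTOP1 had scattered root wells, at 21.89, 23.69, 24.64 and 20.21 at 2 h, and shoot wells between 20.50 and 20.83. It differed by -1.77 at 2 h (95% interval -3.53 to -0.01, limma adjusted p = 0.0822) and -1.52 at 24 h (-3.23 to 0.19), and was called at neither time. It was called without the fourth well row at 2 h (-2.75) and without the third at 24 h (-2.18), toward shoots in both cases. At 2 h it was also called toward shoots under 2 other references. These were UBI of the same plate and well row (-2.57, limma adjusted p = 0.000592) and none (-1.95, adjusted p = 0.0462). SlIDD16, for which tomato mutants have changed salt and drought tolerance, differed by -1.22 at 2 h (-2.35 to -0.09, adjusted p = 0.0666) and -0.34 at 24 h (-1.01 to 0.32). With no reference SlIDD16 was called toward shoots at 2 h (-1.40, limma adjusted p = 0.0197). The targets outside the family were close to level at 2 h, at -0.67 for CRF5 (-2.01 to 0.66) and 0.18 for STF4 (-0.90 to 1.27). CRF5 is named as a cytokinin response factor. At 24 h STF4 was higher in roots by 1.03 ± 0.31 (adjusted p = 0.0095), called under all 5 references but not without the third well row (0.88), and CRF5 differed by 0.44 (-0.55 to 1.43).

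Whether the tissue difference itself changed from 2 h to 24 h was tested as an interaction in limma. It passed for 9 of 22 targets (40.9%), of which 7 shared the first plate and 2 the second. On the first plate the change contains the shift of UBI between the times, 2.41 cycles. SlIDD6 changed by 4.98 ± 0.82 (adjusted p = 3.50e-05) and SlIDD9 by 4.75 ± 0.72 (adjusted p = 3.50e-05) toward roots, and without a reference by 2.57 and 2.34. The other calls of that plate, SlIDD1, SlIDD10, SlIDD3, SlIDD5 and SlIDD7, had changes of 2.04 to 2.39 with UBI and -0.37 to -0.02 without it. On the second plate SlIDD12 changed by 3.76 ± 1.13 toward roots (adjusted p = 0.0134). From 2 h to 24 h its Ct changed by -3.09 cycles in roots and by 0.88 in shoots. SlIDD14 changed by -2.23 ± 0.83 toward shoots (adjusted p = 0.0489). That call was lost with no reference (-2.02, limma adjusted p = 0.104) and with UBI over both plates (-1.21, adjusted p = 0.392). It was also lost without the first, the third or the fourth well row (-2.55 to -1.90, adjusted p = 0.103 to 0.201). SlIDD11, whose shoots moved by -3.68 cycles, changed by -1.03 with UBI (adjusted p = 0.208) and by -3.44 without it (adjusted p = 0.000546). It was also called toward shoots with UBI over both plates (-2.63, adjusted p = 0.00681) and with the mean of all plate targets (-3.18, adjusted p = 0.000844). Leaving out the first well row brought the count to 2 targets and leaving out the third to 3.

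The tissue difference of control plants was then set beside that of stressed plants, in shoot Ct minus root Ct with no reference, so that positive values stand for more template in roots. SlIDD1 came up earlier in roots in all 8 combinations of treatment and time, by 1.96 and 1.69 cycles in controls and 0.37 to 3.11 under stress. With UBI of the same plate its stressed values ran from -0.11, in low pH at 24 h, to 2.38. SlIDD12, later in control roots by 6.21 and 2.24 cycles, was earlier in roots in all 6 stressed combinations, by 0.03 to 2.19 cycles. The smallest of these gaps was in flood at 2 h, where the wells of the tissues overlapped. With UBI of the same plate SlIDD12 lay toward shoots in flood, at -0.79 and -0.67, and was not called (limma adjusted p = 0.159 and 0.213). Its root Ct of 29.30 and 26.21 in controls stood against 20.94 to 22.44 under stress, whereas its shoot Ct ran from 21.43 to 23.97 over all treatments. For SlIDD12 the group that stood apart was thus the control roots.

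SlIDD14 was earlier in roots by 3.83 and 3.47 cycles in salt and by 3.44 in flood at 2 h, opposite in sign to its control differences of -3.66 and -5.68. It lay at 1.39 in low pH at 2 h, and at -0.80 in low pH and -0.70 in flood at 24 h, in the direction of the controls. SlIDD15, earlier in control roots by 3.45 and 1.90 cycles, lay between -0.27 and 0.90 under stress. Its root Ct was 19.50 to 21.16 under stress and 20.81 and 20.91 in controls, and its shoot Ct was 19.34 to 21.68 under stress and 24.26 and 22.82 in controls. For SlIDD15 it was the control shoots. SlIDD18 kept a root excess in low pH, of 2.06 and 2.49 cycles, and lay between -0.60 and 0.66 in salt and flood. SlIDD2 lay at 0.63 to 2.84 in salt and low pH and at -1.35 and -2.70 in flood.

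SlIDD3 had salt values nearer to those of control plants of the opposite tissue than to those of the same tissue. Its Ct was 21.19 in salt roots and 20.97 in control shoots at 24 h, and 23.20 in salt shoots against 24.15 in control roots. The same comparison at 24 h gave SlIDD9 25.22 in salt roots and 25.18 in control shoots. Its salt shoots, at 29.48, were later than the control roots (27.40) as well as the control shoots. Not all targets lay nearer to the opposite tissue. SlIDD1 at 24 h had 21.38 in salt roots, 22.24 in control roots and 23.93 in control shoots. Over the 22 targets the differences in salt and in controls correlated at r = -0.37 at 2 h and -0.42 at 24 h. With flood r was -0.11 and 0.19, and with low pH, over 20 targets, 0.13 and 0.58. Between 2 h and 24 h of the controls r was 0.73. These coefficients run across genes of the same plates and samples, which are not independent replicates, and are a description.

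Tested in limma with the same-plate UBI, the tissue difference under salt departed from that of controls for 9 of 22 targets at 2 h (40.9%) and 16 at 24 h (72.7%). Under low pH it departed for 8 of 20 (40.0%) and 15 of 20 (75.0%), since CRF5 and STF4 had no low pH shoot wells. Under flood it departed for 16 (72.7%) and 19 (86.4%) of 22. These 6 contrasts share the control wells. With no reference the counts were 11 and 15 in salt, 9 and 13 in low pH, and 13 and 12 in flood. On the first plate UBI itself shifted between controls and stress by -4.13 cycles in salt, -5.20 in low pH and -3.11 in flood at 24 h, and each departure there contains that shift.

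The 8 targets called in 1 direction at both times in controls were chosen by the same control wells, so that a departure away from the control direction is partly set by that choice and supports nothing. Of them SlIDD11, SlIDD12, SlIDD14 and SlIDD15 departed in all 6 contrasts, as did SlIDD9, which is not among the 8. SlIDD2 departed in 5, and SlIDD1, SlIDD4 and SlIDD18 in 4. On the second plate the departures of SlIDD12 (1.59 to 6.98) and SlIDD14 (4.12 to 8.10) were toward roots, and the called ones of SlIDD15 and SlIDD18 toward shoots. On the first plate the called departures of SlIDD1, SlIDD2, SlIDD4 and SlIDD11 were toward shoots with UBI, but not all of them without it. With no reference at 24 h the value for SlIDD11 was 1.25 in salt and 1.03 in low pH, both past the threshold toward roots, and 1.25 in flood (limma adjusted p = 0.146). SlIDD4 then departed toward roots by 1.75 in salt and 2.52 in low pH, and SlIDD2 by 1.33 in low pH.

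**Figure D4:**
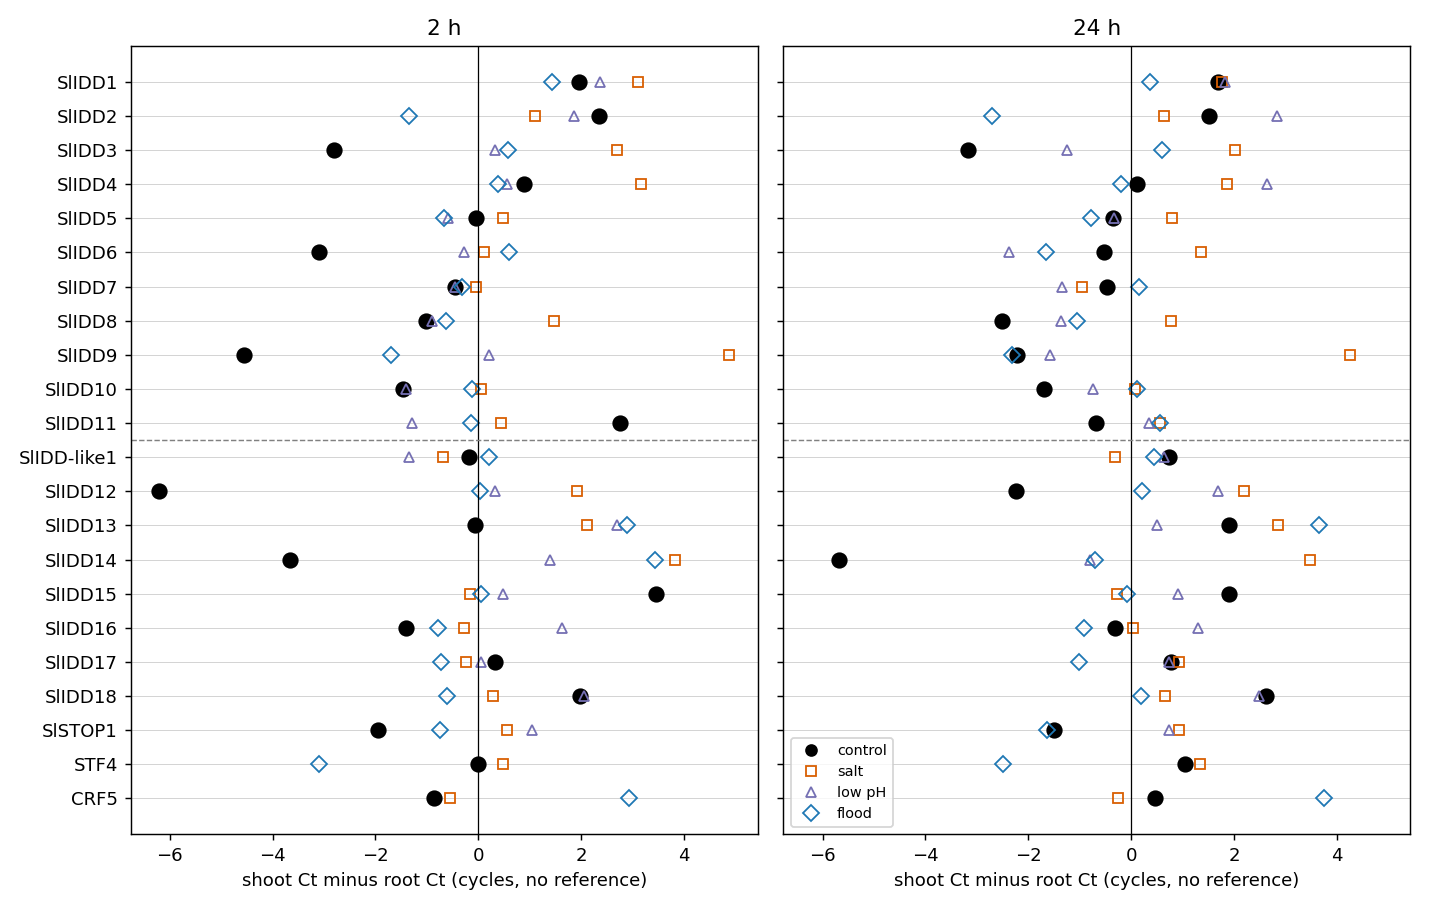
Shoot Ct minus root Ct (x axis, cycles, no reference, positive where roots held more template) for each target (y axis) in control plants (black) and under salt, low pH and flood (open symbols), at 2 h and 24 h. SlIDD1 lies right of 0 in every treatment. SlIDD12 lies at -6.21 and -2.24 in controls and right of 0 under every stress, by only 0.03 in flood at 2 h.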

How the data were processed

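The authors deposited Ct, the number of PCR cycles of each well, with no normalization applied. RNA was reverse transcribed and amplified with SYBR Green, and the authors computed relative quantities in CFX Maestro 4.0, which were not used here, nor were their ratio and fold sheets. On both plates the upper 4 well rows were taken as 2 h and the lower 4 as 24 h, whereas the labels assign a single time to each plate. This layout was chosen after seeing the files, by its match to the study's fold changes (117 of 128 shoot values and 74 of 130 root values within 0.05 log2), which is no independent evidence for it. That match was computed with UBI averaged over both plates, whereas the reported fits used UBI of the same plate. Of the control wells on the first plate, 6 with irregular names were left out, 5 of them with a value.

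Minus delta Ct used the mean UBI Ct of the same plate, tissue and time. limma 3.58.1 (lmFit, eBayes) in R 4.3.3 gave moderated variances per target, to which the error of the UBI means was added, with Satterthwaite degrees of freedom, two-sided p and Benjamini-Hochberg adjustment over the targets. UBI was compared by exact permutation tests of Ct. The script was tested on simulated data. All 22 targets were members, and well values are given for those past the threshold at both times and the 4 with the largest differences at each time. The gene groups are those of the study's phylogeny and a list of BIRD relatives, and members and lists were chosen with earlier results of these data known. A deposited sheet lists 1 locus for both SlIDD9 and SlSTOP1, which were treated as distinct assays. Tables and plots used Python 3.11.15, numpy 2.4.6, pandas 2.3.3 and matplotlib 3.10.9.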

Additional observations from a re-analysis of the deposited data

Results flagged for a closer look

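The tissue difference of SlIDD6 changed from 2 h to 24 h by 4.98, that of SlIDD9 by 4.75, that of SlIDD12 by 3.76 and that of SlIDD14 by -2.23 (log2, limma interaction past the threshold). On the first plate the change of SlIDD1 was 2.14, of SlIDD10 2.18, of SlIDD3 2.04, of SlIDD5 2.10 and of SlIDD7 2.39, beside a change of 2.41 cycles in UBI.

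The tissue difference departed from that of controls in salt for 9 targets at 2 h and 16 at 24 h, in low pH for 8 and 15, and in flood for 16 and 19. By target, 6 stress contrasts departed for SlIDD11, SlIDD12, SlIDD14 and SlIDD15, 5 for SlIDD2, and 4 for SlIDD1, SlIDD4 and SlIDD18. The contrasts share the control wells, which also chose these 8 targets. SlIDD9, called in opposite directions at the 2 times, departed in 6 as well.

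One well lay far from the other 3 of its group by Dixon's test, SlIDD3 in control roots at 2 h, with Ct 24.17. It was the only such well among 55 groups of 4 control wells, of which chance flags about 1 in 20.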

How the results depend on the processing

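The calls at 24 h depended on the reference. Higher in roots were 14 targets in the reported fit and 9 with UBI over both plates. With the mean of all targets, which cannot show a general excess toward a tissue, and with no reference they were 7 each. Higher in shoots at 24 h were 2 in the reported fit and 6 each under the last 2 settings, and at 2 h 5 in the reported fit and 9 with no reference. With UBI over both plates the 24 h values of SlIDD10, SlIDD3 and SlIDD9 turned to -0.35, -1.84 and -0.88. With the mean of all targets SlIDD10, SlIDD3, SlIDD8 and SlIDD9 turned to -0.94, -2.42, -1.75 and -1.47. With no reference SlIDD10, SlIDD11, SlIDD3, SlIDD5, SlIDD6, SlIDD7, SlIDD8 and SlIDD9 turned to -1.69, -0.68, -3.18, -0.36, -0.53, -0.46, -2.51 and -2.22. With irregular wells in plate order SlIDD9 turned to -0.0585.

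Changes of the tissue difference over time passed for 9 targets in the reported fit and 5 with no reference. With the mean of all targets those of SlIDD1, SlIDD3 and SlIDD5 turned to -0.0141, -0.12 and -0.0532. With no reference SlIDD1, SlIDD10, SlIDD3, SlIDD5, SlIDD7 and SlIDD8 turned to -0.27, -0.23, -0.37, -0.31, -0.0209 and -1.50. For flood at 24 h, 19 departures became 12 with the mean of all targets and 12 with no reference. With both plates together UBI differed by 0.53 cycles at 2 h (exact permutation p = 0.0326) and 1.34 at 24 h (exact permutation p = 0.0230). On the single plates it differed by 0.85 and 0.18 at 2 h and by 3.27 and -0.03 at 24 h. The pooled wells were permuted without regard to plate, so that their p does not measure a difference shared by the plates.

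The exact permutation test called 0 targets in either direction at both times (limma made 11 and 16 calls), with 7 and 12 at an unadjusted p under 0.05. Its smallest p for 4 against 4 wells is 0.0286, and its smallest adjusted p was 0.0898 at 2 h and 0.0524 at 24 h. At 2 h SlIDD12, with 3 wells in each tissue, had an exact permutation p of 0.1. SlIDD14, with 2 wells in each tissue, had 0.333. These are the smallest p that such groups allow, so neither target could be called. The absence of calls therefore follows in part from the well numbers. Leaving out each well row in turn gave 5 to 7 targets higher in roots and 3 to 6 in shoots at 2 h (3 without the third row), 11 to 14 and 2 to 3 at 24 h, and 2 to 10 changes over time. With the well row as a replicate block, 6 and 4 targets were called at 2 h, where SlIDD14 had no value, and 13 and 2 at 24 h, where SlIDD17 was not called. The same row correlated at -0.21 to -0.01 between tissues at 2 h and -0.17 to 0.28 at 24 h. It was the best match for 0 and 1 of 4 rows, so rows were not taken to pair roots with shoots. Whether the wells of a row within a tissue share a plant was not tested. The alternatives of leaving irregular wells out on both plates and UBI over both plates for the stress contrasts, were chosen after seeing the data. Of 857 values of single targets under all alternatives, 729 stayed on their side of the threshold, 77 lost a call, 26 gained one and 25 turned sign with a call on one side. A further 33 that passed on neither side turned sign and are counted in the 729. The total includes settings that leave the estimates as they are, such as adjustment over both times, where all 44 values stayed. With no reference gene 44 stayed, 3 lost a call, 5 gained one and 14 turned sign with a call on one side. At most 4 wells a group, and 2 for UBI in first-plate shoots at 24 h, limit the precision.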
